A study of Mus musculus with 19 samples.

Results

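The genes examined here encode the proteasome, the protease complex of the cytosol and nucleus that degrades ubiquitin-tagged proteins. They were taken by symbol: every gene named Psma to Psmg followed by a number, together with Pomp and Adrm1. This gave 50 of the 46095 genes in the count table. Psmb8 and Psmb9 lie in a stretch of chromosome 17 with few counts and are given apart, which leaves 48 genes, of which 46 passed the filter on low counts in each cell type. The filter left out Psmb11 and Psmg1.

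RNA was sequenced from bone marrow cells of C57BL/6 mice, and the title of the series speaks of hypergravity, osteoclasts and unfolded protein signalling. Hypergravity mice were centrifuged at 15 G for 15 min, in an intervention of about 1 or 3 weeks, and control mice are listed as normally fed and at 0 G. The cell types were bone marrow-derived macrophages (BMDM, grown with the macrophage growth factor M-CSF) and cells labelled bone mesenchymal stem cells (BMSC), although both share a protocol for growing macrophages in the labels. The labels give no age or sex. In BMDM the 1 week set held 2 hypergravity and 3 control libraries and the 3 week set 2 of each. In BMSC the 1 week set held 3 of each and the 3 week set 2 of each. No duration is given for controls of the 1 week set, which were matched to the 1 week animals by name. Whether replicates are separate animals or cultures is not said, and the p-values below therefore reflect sample-to-sample spread that may be technical.

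The 26S proteasome consists of a barrel-shaped 20S core, whose outer alpha rings gate the entry and whose inner beta rings carry the proteolytic sites, and a 19S regulatory particle with a base of ATPases that unfold substrates and a lid that removes ubiquitin. Dedicated chaperones assemble core and base. Interferon-inducible beta subunits form the immunoproteasome, which together with the PA28 activator favours peptides for presentation on MHC class I, and macrophages are known to use it in immune responses. The transcription factor NFE2L1 is known to raise the transcription of proteasome genes when proteasome capacity falls short.

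Library totals ran from 16.32 to 33.02 M counts (1e6), so that 3 counts, taken as the floor, were worth 0.0909 to 0.184 CPM (counts per 1e6 counts), a limit that covers counting error only. Variance between replicates was 4.3 to 97.9 times that of counting. The third control library of the 1 week BMDM set stood apart from its partners (34.7 and 64.4 times, against 8.8 between the first and second). Macrophage markers summed to 22070 to 31000 CPM in BMDM and to 22610 to 27570 CPM in BMSC, so the BMSC libraries were rich in macrophage transcripts. The 7 stromal markers summed to 1480 to 8600 CPM in BMSC and to 21.5 to 67.6 CPM in BMDM. In such bulk samples fewer cells of a type and less RNA per cell cannot be told apart.

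Upstream stretches are shown for 4 members that rose in BMDM at 1 week, because the first 3 hold the letters of an element that stress-responsive or interferon-responsive factors are known to bind, and the fourth, the lid gene with the largest rise, holds none of those searched. They are RefSeq sequences of build GRCm38.p6, 5′ to 3′ on the strand of the gene, and capitals mark the letters found on either strand. Psmb5 lies at chr14:54617996-54618095 (minus strand), Adrm1 at chr2:180171408-180171507 (plus strand, 180 to 81 bases before the start), Psmd4 at chr3:95042615-95042714 (minus strand) and Psmd11 at chr11:80428515-80428614 (plus strand). The capitals are TGACNNNGC, the core of the antioxidant response element that NFE2L1 and its relatives bind, in Psmb5 and Adrm1. In Psmd4 they are CCAAT and the core of the interferon-stimulated response element (GAAA and GAAA parted by 2 bases), both on the opposite strand.
Psmb5: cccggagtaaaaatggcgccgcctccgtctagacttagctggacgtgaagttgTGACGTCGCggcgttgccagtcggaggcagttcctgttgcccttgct
Adrm1: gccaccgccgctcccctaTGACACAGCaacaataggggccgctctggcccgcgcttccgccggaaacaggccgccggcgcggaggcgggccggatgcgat
Psmd4: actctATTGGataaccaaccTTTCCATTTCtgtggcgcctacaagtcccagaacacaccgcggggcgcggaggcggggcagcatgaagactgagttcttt
Psmd11: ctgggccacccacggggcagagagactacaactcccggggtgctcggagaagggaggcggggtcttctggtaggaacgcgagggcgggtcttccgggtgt

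RefSeq held promoters, 250 bases before to 50 after a start, for 42 of the 50 genes with 45 starts. TGACNNNGC occurred in 7 of these 45 windows (15.6%), against 12.4% of all 32851 windows. The variant TGAGNNNGC occurred in 13 (28.9%, against 17.6%), CCAAT in 15 (33.3%, against 37.4%), the interferon-stimulated element in 5 (11.1%, against 3.4%) and TTCNNNGAA, a STAT-type site, in 3 (6.7%, against 8.3%). Of the 31 matched genes that rose in BMDM at 1 week, 5 held TGACNNNGC, 9 TGAGNNNGC and 12 CCAAT. The interferon-stimulated element was in 2 of them and TTCNNNGAA in 2. A link between a motif and the rise was not tested. Both strands were searched and the motifs do not contain one another. Such a match is a description of letters, and its absence says only that the letters are not in the window.

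Levels differed widely among the members. The exonic length used here merges all annotated exons of a gene, so the order per kilobase depends on the annotation too. Psma6 with 131 CPM over 1234 bases stood at rank 1, and Psmb1 with 133 CPM over 4595 bases at rank 29. Per kilobase of exon, Psma6 of the alpha ring had the highest mean level over the 19 libraries (106 CPM per kb), followed by the lid gene Psmd8 (89.8 CPM per kb) and the base ATPase Psmc1 (80.1 CPM per kb). The ubiquitin receptor Adrm1 (7.83 CPM per kb) and the assembly chaperones Psmg2 (7.49) and Psmg3 (3.91) were among the lowest of those well detected, and Psma8, which replaces an alpha subunit in testis, had 0.943 CPM per kb. Others had few or no counts. Psmb11, the thymus-specific beta subunit, was at 0 in all 19 libraries, which allows up to 0.0909 to 0.184 CPM per library. Psmg1, a core assembly chaperone, averaged 0.13 CPM. Its neighbours were taken as the 8 protein-coding genes on each side along the chromosome. Of these, 14 were in the count table and 12 were under 10 CPM. Psmb6, which carries a proteolytic site of the standard core, averaged 0.916 CPM, a level far below that of its ring partners. All 16 of its neighbours along the chromosome were also under 10 CPM. The share of all genes under 10 CPM is not given, so the neighbours are a description only.

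The first comparison set BMDM of 1 week hypergravity mice against control BMDM. Of the 46 tested proteasome genes, 34 rose, 2 fell and 10 were not called (edgeR adjusted p below 0.05 over all genes), while 30.5% of all 13842 tested genes rose and 30.8% fell. The median log2 fold change was 0.74 over the 46 genes and -0.03 over all genes. CPM of hypergravity libraries lay wholly above those of controls for 30 of the 46 genes (25.7% of all genes) and wholly below for 4 (47.4%). DESeq2 called 35 higher and 2 lower. With libraries scaled by total count alone, 28 rose and 4 fell, the median of all genes moved to -0.29 and that of the members to 0.48, and the share of rises among all calls was 34.7% in place of 49.7%.

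Markers of cell types moved in this set too, and not as whole lists. The 7 macrophage markers summed to 22070 to 22430 CPM in hypergravity libraries and to 27850 to 31000 CPM in controls, most of it from Lyz2 (mean 14830 against 22220 CPM). Mrc1 (23.6 against 424 CPM), Csf1r (1830 against 2429 CPM), Cd68 (1054 against 1535 CPM) and Itgam (791 against 992 CPM) were also lower without overlap. Adgre1 was higher (3443 against 1728 CPM) and Fcgr1 overlapped (286 against 266 CPM). The 6 neutrophil markers summed to 163 to 196 CPM under hypergravity and to 190.4 to 388 CPM in controls. Among them Mpo averaged 0.0553 against 9.53 CPM, Elane 0.221 against 5.58 CPM and Ltf 4.20 against 59.1 CPM, while S100a8 averaged 97.5 against 82.5 CPM and overlapped. The 4 endothelial markers summed to 38.7 to 44.8 CPM under hypergravity and to 9.65 to 15.4 CPM in controls, mostly from Kdr (32.3 against 4.56 CPM). Pecam1 was also higher (8.5 against 5.8 CPM), while Emcn was lower (0.0909 against 0.655 CPM) and Cdh5 overlapped (0.820 against 0.946 CPM). The 7 stromal markers overlapped in sum (40.7 to 42.2 against 36.7 to 67.6 CPM). Among them Pdgfrb was higher (11.7 against 1.98 CPM), and Cxcl12 (0.201 against 1.14 CPM) and Runx2 (9.5 against 14.2 CPM) were lower. The part of these cell types in the result was not tested.

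**Figure D1:**
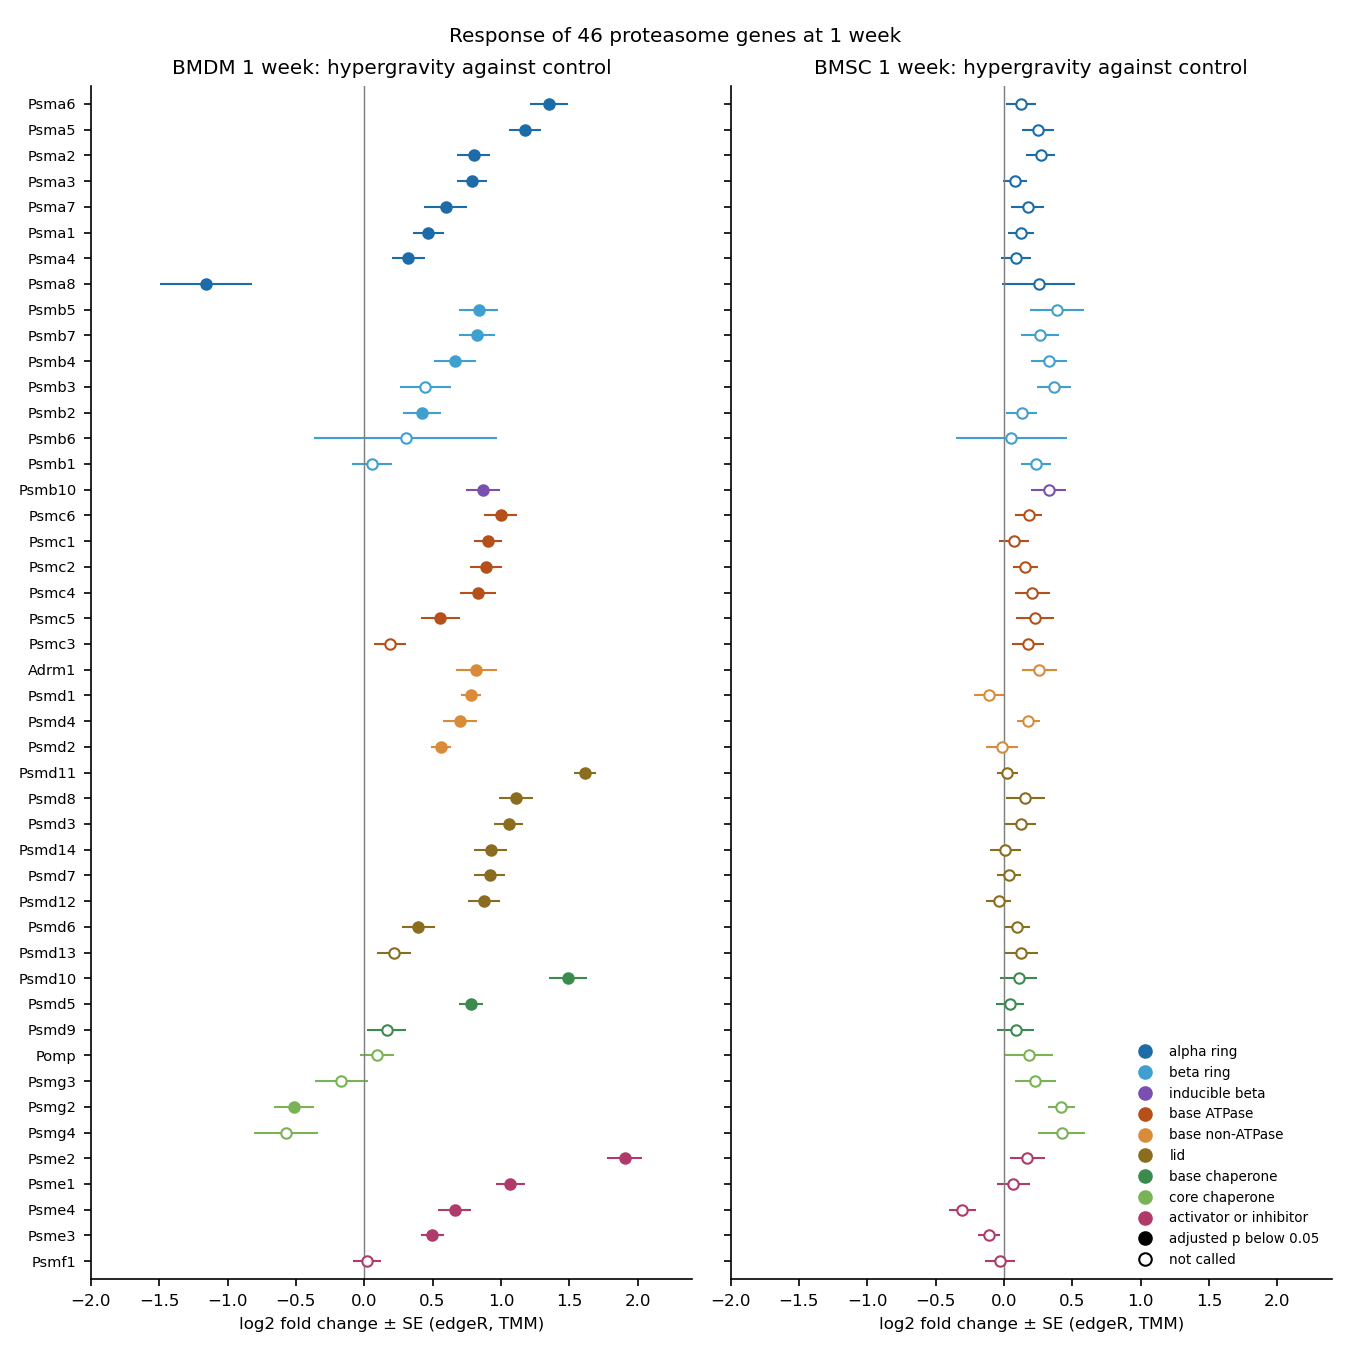
Log2 fold change (horizontal axis, point ± SE, edgeR with TMM scaling) of 46 proteasome genes in hypergravity over control libraries at 1 week, BMDM on the left and BMSC on the right. Colours give the role, and filled points have an adjusted p below 0.05. In BMDM 34 filled points lie right of 0 and 2 left of it, and in BMSC no point is filled.

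In the alpha ring, 7 of 8 genes rose and Psma8 fell. Psma6 had 262 and 228 CPM in hypergravity BMDM, against 128, 122 and 95.5 CPM in controls. The log2 fold change was 1.35 ± 0.14 (SE, edgeR adjusted p = 1.66e-05). Psma5, another constitutive ring subunit, had 154 and 137 CPM in hypergravity BMDM, against 82.8, 81.6 and 66.3 CPM in controls (log2 1.18 ± 0.12, adjusted p = 1.26e-05). For both genes every hypergravity library stood above every control. Psma8 had 0.751 and 0.788 CPM under hypergravity, against 1.86, 2.83 and 1.56 CPM in controls (log2 -1.16 ± 0.34, adjusted p = 0.0132), on 15 to 58 counts per library. The groups did not overlap, but the call was lost without either hypergravity library (adjusted p = 0.0545 without the first and 0.0662 without the second). The rises of the other alpha genes ranged from 0.32 in Psma4 to 0.80 in Psma2. Those of Psma4, Psma1 and Psma7 were lost when libraries were scaled by total alone. Psma4 was called under only 6 of 13 alternatives, with overlapping groups, and Psma1 and Psma7 under 11 of 13.

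In the beta rings, 4 of 7 standard genes rose. Psmb5 and Psmb7, which carry the chymotrypsin-like and trypsin-like sites, moved alike. Psmb5 had 86.1 and 74.1 CPM in hypergravity BMDM, against 61.7, 54.2 and 45.1 CPM in controls, a log2 fold change of 0.84 ± 0.14 (edgeR adjusted p = 0.000518). Psmb7 had 157 and 140.1 CPM under hypergravity, against 108, 111 and 83.5 CPM in controls (0.82 ± 0.13, adjusted p = 0.000385). In neither did the groups overlap. Psmb4 and Psmb2, which have no active site of this kind, had log2 fold changes of 0.66 and 0.42, and the call of Psmb2 was lost under 4 of 13 alternatives. Psmb3 (0.45, adjusted p = 0.0584) and Psmb1 (0.05, adjusted p = 0.768) were not called. Psmb6 had 1.502 and 1.575 CPM under hypergravity, against 0.545, 0.709 and 3.38 CPM in controls (0.30 ± 0.67, adjusted p = 0.716), with the third control library above all others. Without that library Psmb6 was called (1.55, adjusted p = 0.00728).

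Among inducible beta genes, Psmb10, the immunoproteasome counterpart of Psmb7, had 175 and 167 CPM in hypergravity BMDM, against 129, 112 and 96.1 CPM in controls. The groups did not overlap and the log2 fold change was 0.87 ± 0.12 (edgeR adjusted p = 0.000163). Its count was 1.12 and 1.19 times that of Psmb7 in hypergravity libraries and 1.20, 1.01 and 1.15 times in controls, so the ratio overlapped between the groups. Psmb8 and Psmb9, the counterparts of Psmb5 and Psmb6, had almost no counts, and all 16 neighbours of each were under 10 CPM. Psmb8 had 18 and 23 counts under hypergravity, against 10, 4 and 5 in controls (log2 1.79 ± 0.42, adjusted p = 0.0041). Psmb9 had 2 and 53 counts, against 160, 3 and 0 in controls, and was not called (adjusted p = 0.627), with the libraries of each group far from each other.

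Of the 18 genes of the 19S particle, 16 were higher and none lower by edgeR, with a median log2 fold change of 0.85. The median was 0.60 over the 15 genes of the alpha and standard beta rings, Psma8 and Psmb6 included. In the base, 5 of 6 ATPase genes rose, between 0.56 in Psmc5 and 1.00 in Psmc6 on the log2 scale, and Psmc3 was not called (0.19, adjusted p = 0.19). The CPM of Psmc5 overlapped between the groups, and its call held under 11 of 13 alternatives. All 4 of the other base genes rose, including the scaffolds Psmd1 (0.78) and Psmd2 (0.56). The ubiquitin receptor Psmd4 had 139 and 123 CPM in hypergravity BMDM, against 107, 101 and 81.6 CPM in controls (log2 0.70 ± 0.13, adjusted p = 0.000798). Adrm1, the receptor that also docks a deubiquitinase, had 57.2 and 49.7 CPM, against 40.1, 39.0 and 29.6 CPM in controls (0.82 ± 0.15, adjusted p = 0.000846). Hypergravity libraries were above controls throughout for both receptors.

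In the lid, 7 of 8 genes rose. Psmd11 (chromosome 11, 80428615 to 80473248, mm10), whose product Rpn6 clamps lid and core together, had 153 and 154 CPM in hypergravity BMDM, against 59.3, 62.5 and 58.3 CPM in controls. Replicates were close and the groups far apart, with a log2 fold change of 1.62 ± 0.08 (edgeR adjusted p = 1.03e-07). Psmd14, the deubiquitinase of the lid, had 149.5 and 145 CPM under hypergravity, against 96.7, 103 and 79.7 CPM in controls (0.92 ± 0.12, adjusted p = 8.16e-05). Psmd8 and Psmd3 followed Psmd11 in size (1.11 and 1.06), Psmd6 rose by 0.40 with a call lost under 4 of 13 alternatives, and Psmd13 was not called (0.22, adjusted p = 0.15).

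Assembly factors were split. Psmd10 (gankyrin), a chaperone of the base, had 77.0 and 68.4 CPM in hypergravity BMDM, against 33.9, 33.6 and 25.5 CPM in controls (log2 1.49 ± 0.14, edgeR adjusted p = 8.8e-06), the groups standing clearly apart. Psmd5, another base chaperone, rose by 0.78, and Psmd9 was not called (0.16). None of the 4 tested core chaperones rose. Pomp, the maturation factor of the core, had 182 and 167 CPM, against 215, 201 and 173 CPM in controls (0.09 ± 0.13, adjusted p = 0.551), with overlapping groups and a sign that turned under scaling by total alone (-0.17). Psmg2 had 7.06 and 6.60 CPM, against 12.6, 12.2 and 10.1 CPM in controls (-0.51 ± 0.14, adjusted p = 0.0105), lower in both hypergravity libraries, although the call was lost without the second of them (adjusted p = 0.0821). Psmg4 (-0.57, adjusted p = 0.0551) and Psmg3 (-0.17, adjusted p = 0.478) were not called.

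Of the activators and the inhibitor, 4 of 5 rose. Psme2 (PA28 beta; chromosome 14, 55587441 to 55591113, mm10) had the largest rise of all members, with 279 and 234 CPM in hypergravity BMDM, against 93.0, 82.1 and 71.2 CPM in controls. The log2 fold change was 1.91 ± 0.13 (edgeR adjusted p = 8.03e-07). A near-identical copy on chromosome 11, Psme2b, could share its reads, and it moved alike (1.96 ± 0.09). The count of Psme2 was 1.41 to 1.87 times that of Psme2b in this set. Psme1, the PA28 alpha subunit that forms a ring with Psme2, had 271 and 247.5 CPM under hypergravity, against 164, 142 and 139 CPM in controls (1.07 ± 0.11, adjusted p = 1.29e-05).

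Psme3, the PA28 gamma subunit of the nucleus, moved less, with 75.2 and 75.8 CPM in hypergravity BMDM, against 61.3, 64.6 and 66.9 CPM in controls (log2 0.50 ± 0.08, edgeR adjusted p = 0.000498). Psme4, the PA200 activator, had 143.5 and 162 CPM, against 96.9, 115 and 136 CPM in controls (0.66 ± 0.12, adjusted p = 0.000902). Hypergravity libraries were the higher ones for both. Psmf1, the inhibitor PI31, had 21.1 and 20.9 CPM, against 26.1, 24.9 and 23.5 CPM in controls (0.02 ± 0.10, adjusted p = 0.888). Its CPM were lower in both hypergravity libraries, whereas TMM scaling put the fitted change near 0, and scaling by total alone gave -0.24 (adjusted p = 0.0489).

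**Figure D2:**
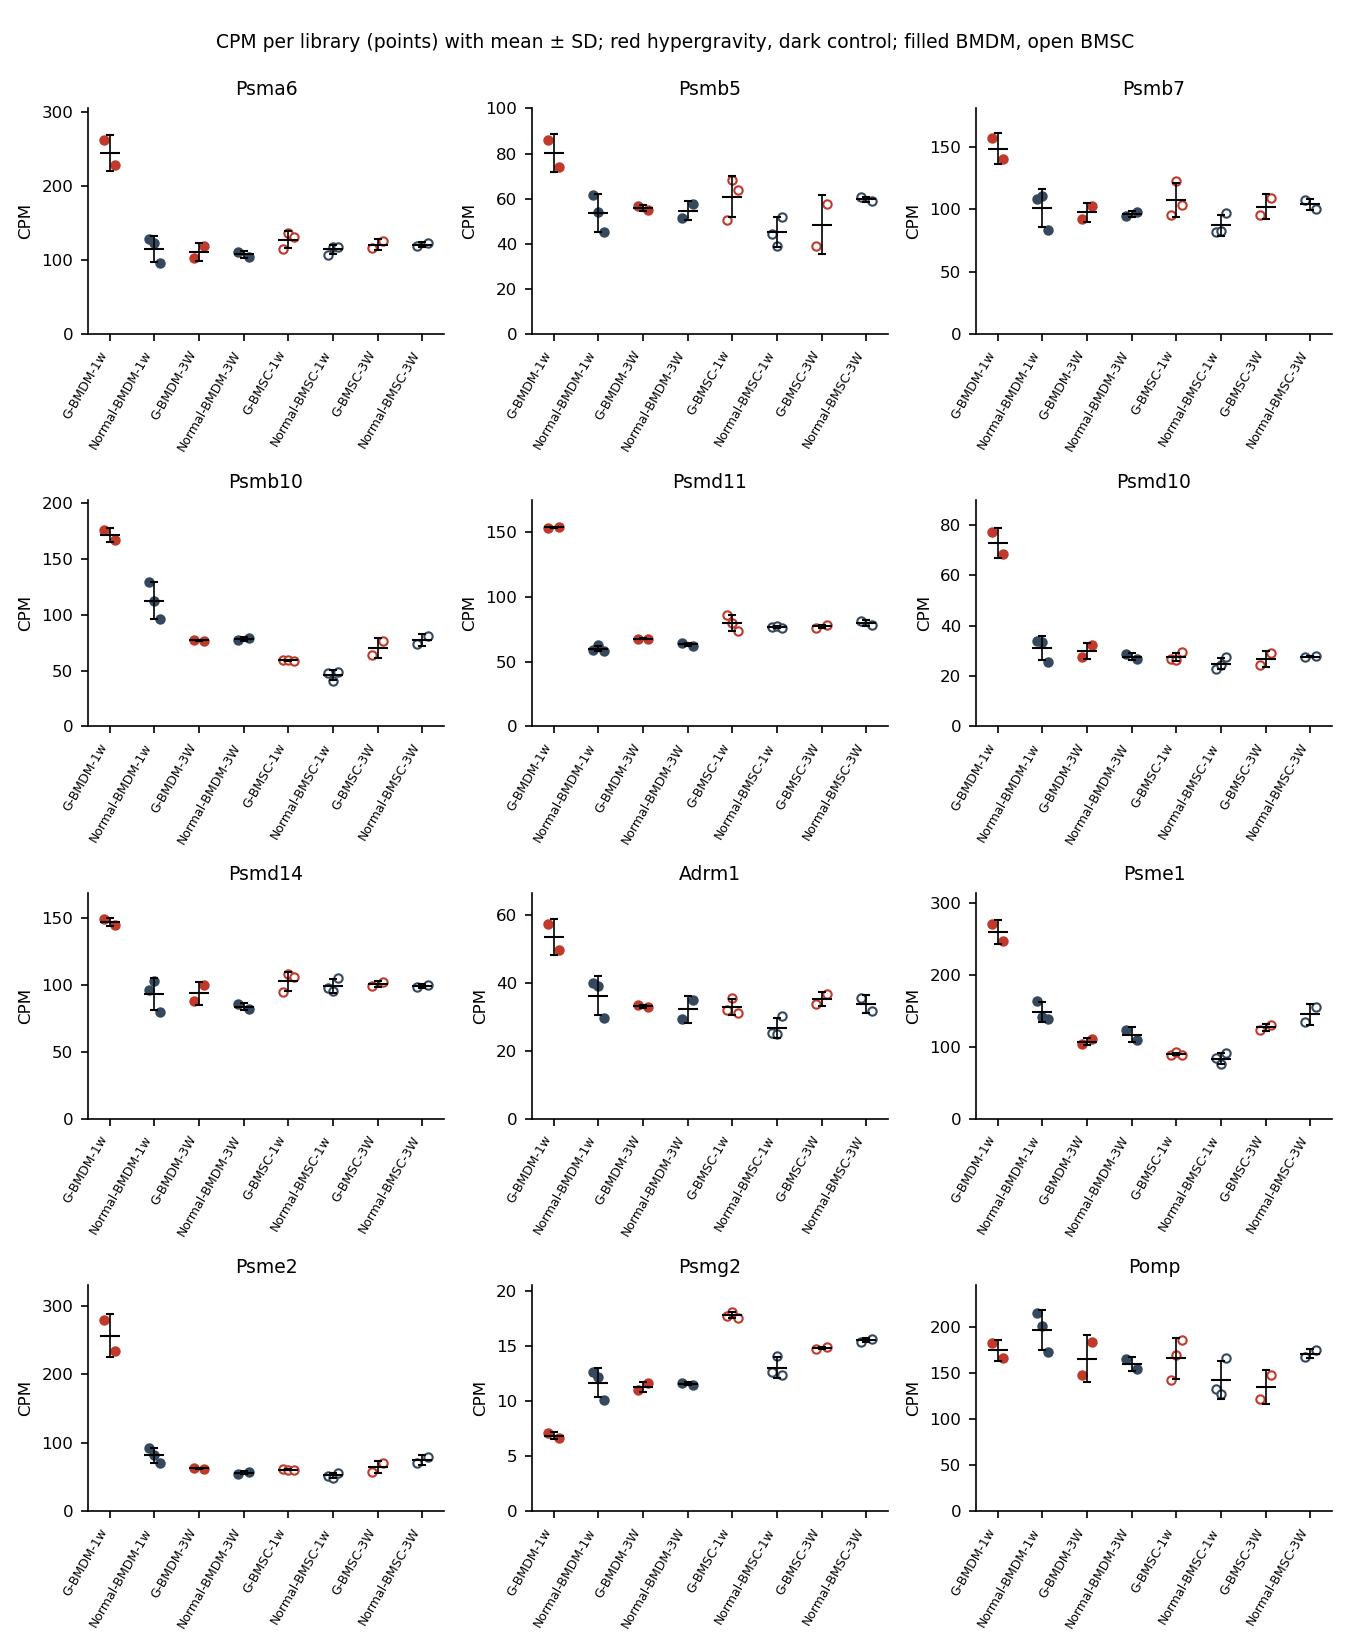
CPM per library (vertical axis, points) with the mean and SD of each group (bars) for 12 proteasome genes in the 8 groups, hypergravity in red and control in dark, BMDM filled and BMSC open. Hypergravity BMDM at 1 week stand above their controls in Psma6, Psmd11, Psmd10 and Psme2, and the same genes lie close together in the other 6 groups.

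Summed CPM show the same levels by particle. The core summed to 1882 and 1665 CPM in hypergravity BMDM at 1 week, against 1478, 1420 and 1106 CPM in controls, and the 19S particle to 3125 and 2900 CPM against 2183, 2151 and 1847 CPM. PA28 alpha and beta together reached 550.1 and 482 CPM, against 257, 224 and 210.2 CPM in controls. Assembly factors overlapped, with 368 and 343 CPM against 359, 342 and 289 CPM. These sums are a description with no test.

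**Figure D3:**
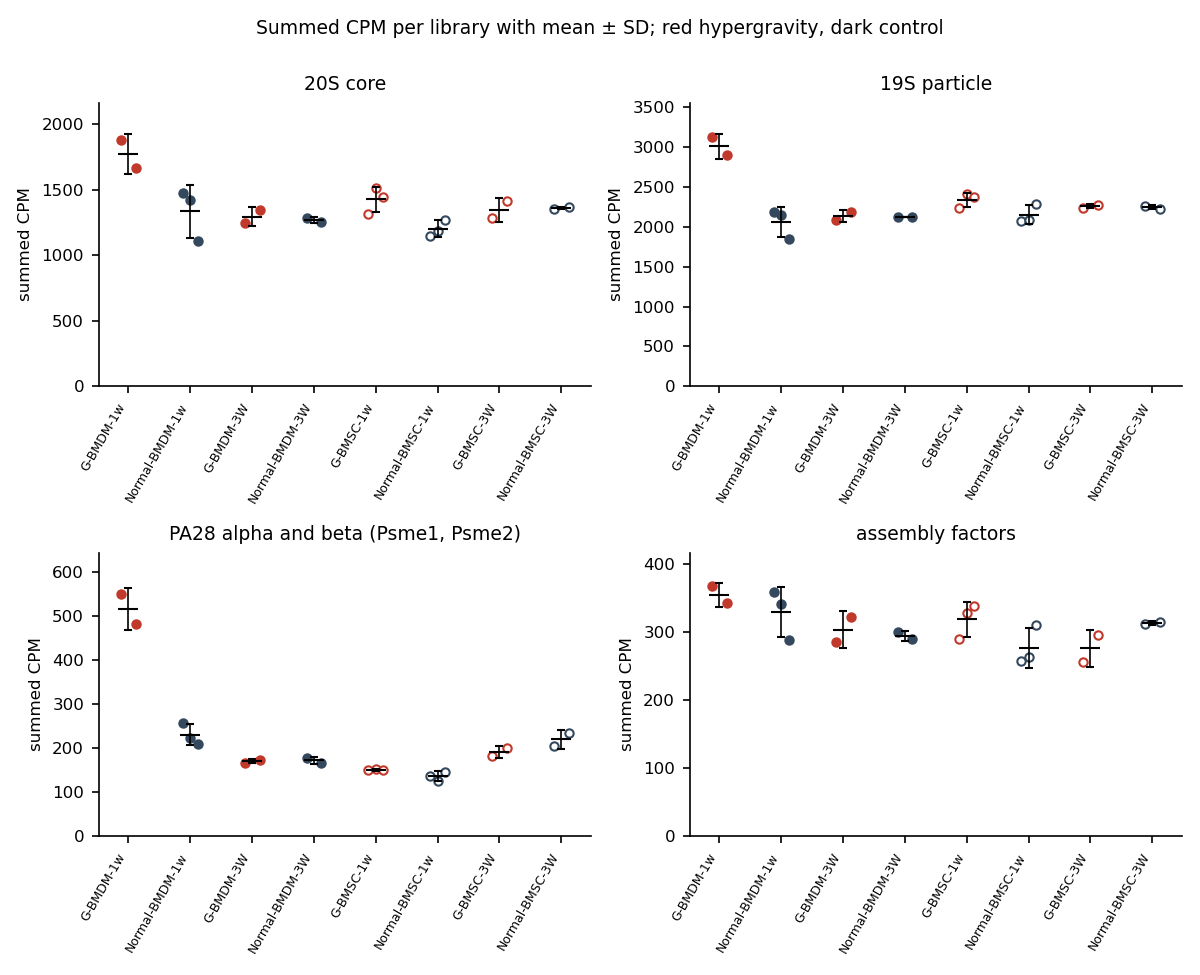
Summed CPM per library (vertical axis, points) with mean and SD (bars) for the 20S core, the 19S particle, the PA28 pair and the assembly factors in the 8 groups. In BMDM at 1 week the first 3 sums are higher in hypergravity libraries, and the sums of assembly factors overlap (343 to 368 against 289 to 359 CPM).

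Ratios within a library do not depend on scaling. The count of Pomp was 2.12 and 2.25 times that of Psmb5 in hypergravity BMDM at 1 week, against 3.49, 3.70 and 3.83 times in controls. Assembly factors amounted to 0.196 and 0.206 of the core, against 0.243, 0.241 and 0.261 in controls. Both ratios were lower in every hypergravity library. They are not independent, because Pomp is in both. Pomp made up 182 of the 368 CPM of assembly factors in the first hypergravity library and 215 of 359 CPM in the first control. Psme1 had 3.60 and 3.27 times the count of Psme3, against 2.67, 2.20 and 2.08 times in controls, a higher ratio in both hypergravity libraries. The same ratio was 1.34 and 1.39 in hypergravity BMDM at 3 weeks, against 1.58 and 1.30 in controls. In BMSC at 1 week it was 0.908, 0.966 and 0.985 under hypergravity, against 0.857, 0.771 and 0.892 in controls. It overlapped in BMDM at 3 weeks and was higher without overlap in BMSC at 1 week, where Psme1 stood below Psme3 in every library. In BMSC at 3 weeks it was 1.21 and 1.33 under hypergravity, against 1.49 and 1.69 in controls, lower without overlap.

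**Figure D4:**
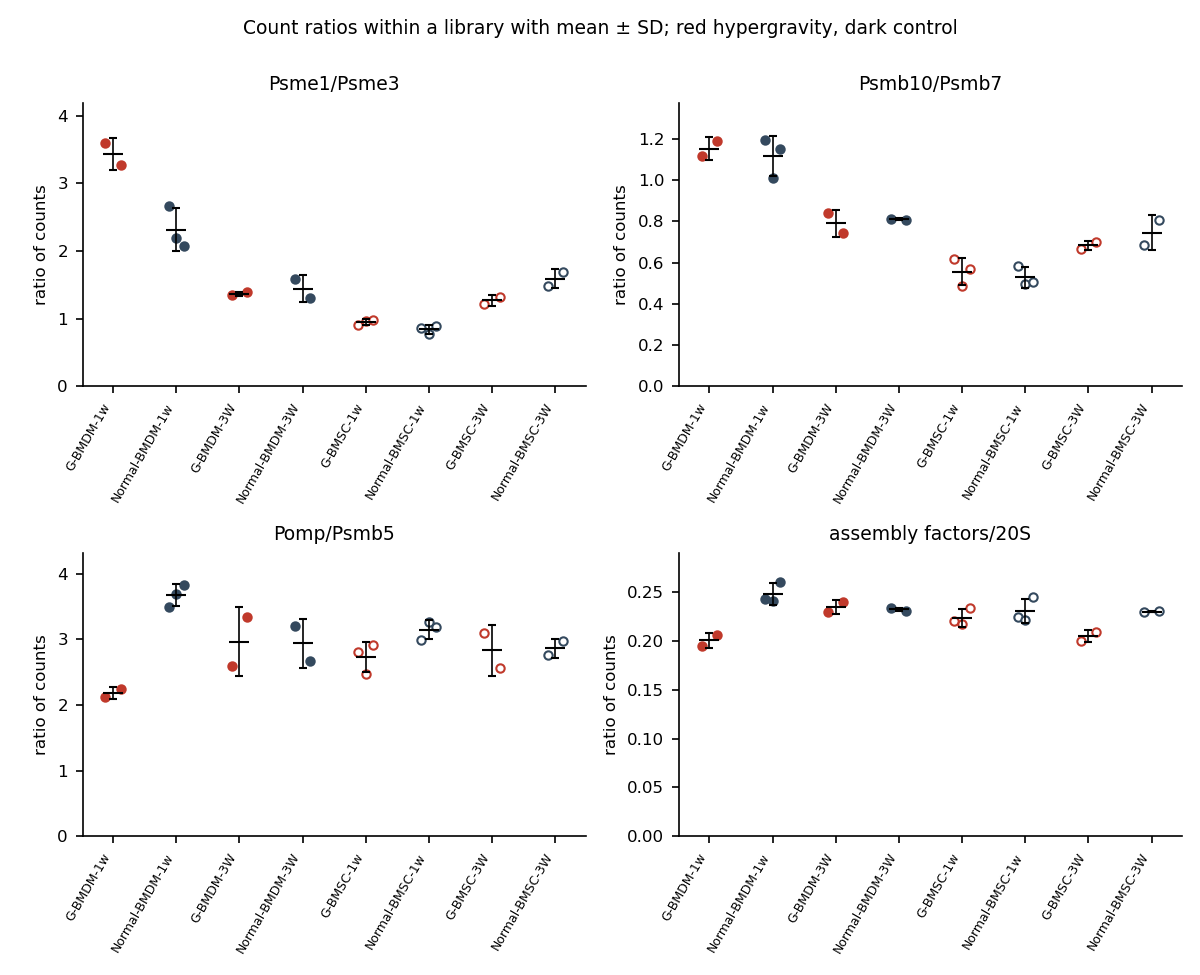
Count ratios within a library (vertical axis, points) with mean and SD (bars) in the 8 groups. In BMDM at 1 week Psme1 over Psme3 is higher and Pomp over Psmb5 lower in hypergravity libraries (2.12 and 2.25 against 3.49 to 3.83), and Psmb10 over Psmb7 overlaps.

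Other genes of the pathway were taken from lists chosen with earlier results of these data known. Among 9 genes that control proteasome transcription, 7 rose and 1 fell in BMDM at 1 week, where 30.5% of all genes rose and 30.8% fell, with a list median of 0.60 against -0.03 over all genes. The small Maf partners of NFE2L1 and NFE2L2 rose most: Maff averaged 157 ± 3.8 CPM in hypergravity and 2.68 ± 0.51 CPM in control libraries (log2 6.16 ± 0.16, edgeR adjusted p = 1.75e-09), and Mafk (2.02) and Mafg (1.43) also rose. Nfe2l1 averaged 317 ± 16 CPM under hypergravity and 176 ± 28 CPM in controls (SD, n = 2 and 3), a log2 fold change of 1.12 ± 0.11 (adjusted p = 1.29e-05). Ngly1, which encodes an enzyme that processes NFE2L1 protein and was named after its values were seen, fell (-0.58 ± 0.11, adjusted p = 0.00123).

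On the log2 scale, of 17 tested proteasome partners and shuttles 13 rose and 1 fell, led by the shuttle factor Rad23b (1.22), Txnl1 (1.31), Nploc4 (1.07) and Zfand5 (2.83-fold higher). Of 12 genes for ubiquitin activation and conjugation 6 rose and 1 fell, including the main activating enzyme Uba1 (1.23) and, lower, Ube2d1 (-0.71). Of 9 tested genes of class I peptide supply and its regulators 8 rose, with Irf1 (2.57), an interferon response factor, Nlrc5 (2.26), Tapbp (1.55) and Erap1 (1.19). All 5 of that list outside chromosome 17 were among them. These counts stand beside the same 30.5% and 30.8% of all genes. The list medians were 0.56 for partners and shuttles, 0.36 for activation and conjugation and 1.48 for the class I list, against -0.03 over all genes.

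At 3 weeks the proteasome genes of BMDM showed no call. By edgeR 0 of 46 passed, 0 had an unadjusted p below 0.05 and DESeq2 also called 0, where 0.426% of all genes were called higher and 0% lower. The median log2 fold change was 0.06. Psme2 had 62.8 and 62.5 CPM in hypergravity BMDM, against 54.8 and 57.8 CPM in controls, and Psmd11 had 67.7 and 67.2 against 64.2 and 62.2 CPM. In both genes hypergravity libraries were slightly higher without overlap, as in 9 of the 46 genes (12.8% of all genes), and 5 of the 46 lay wholly below (24.9%). Psmb5 had 56.8 and 55.0 CPM in hypergravity BMDM, against 51.6 and 57.8 CPM in controls, and Psmb10 had 77.1 and 76.8 against 77.0 and 79.3 CPM, both overlapping. The genes together summed to 4208 ± 175 CPM under hypergravity and 4163 ± 28 CPM in controls (SD, n = 2 each). Macrophage markers summed to 26450 to 27410 CPM under hypergravity and to 23540 to 24250 CPM in controls of this set. Stromal markers summed to 21.5 to 25.3 against 29.8 to 48.5 CPM, and the sums of the other marker lists overlapped. The part of these cell types in the result was not tested.

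In BMSC at 1 week no proteasome gene was called by edgeR, where 0.249% of all 15289 tested genes were called higher and 2.47% lower. At an unadjusted p below 0.05, 6 genes were higher and 1 lower, a description without the share of all genes beside it. DESeq2 called 1 (2.2%), Psmg2 (adjusted p = 0.00934), where it called 1.4% of all genes higher and 4.8% lower. The median log2 fold change was 0.14, against 0.00 over all genes. Hypergravity libraries lay wholly above controls for 15 of the 46 genes (11.2% of all genes) and wholly below for 0 (9.33%). Psmg2 had 17.7, 18.1 and 17.5 CPM in hypergravity BMSC, against 12.6, 14.1 and 12.4 CPM in controls, without overlap. Psmb5 had 50.7, 68.2 and 63.9 CPM, against 44.5, 39.1 and 52.0 CPM in controls, with the lowest hypergravity library below the highest control. Psmb3 had 79.6, 93.8 and 84.0 CPM, against 59.5, 61.3 and 73.2 CPM in controls.

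Several of these results changed without the third control library. It was the highest control for Psmb3, Adrm1 and Psmc4 and the lowest for Psmg2 (12.35 against 12.58 and 14.09 CPM). Without it edgeR called 4 genes higher, Psmb3 (log2 0.52 ± 0.09, adjusted p = 0.0156), Psmg2 (0.43), Adrm1 (0.41) and Psmc4 (0.37). Psme4 was then called lower (-0.41 ± 0.07, adjusted p = 0.0135). In that fit 1.7% of all genes were called higher and 5.7% lower. Psme4 had 141, 127.5 and 119 CPM in hypergravity BMSC, against 167, 179.9 and 124 CPM in controls, with the third control inside the range of hypergravity libraries. Adrm1 had 32.1, 35.6 and 31.3 CPM, against 25.2, 25.1 and 30.1 CPM in controls, without overlap. Stromal markers ranged from 4154 to 8600 CPM in hypergravity and from 2679 to 7830 CPM in control libraries of this set, and their part in these results was not tested.

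In BMSC at 3 weeks edgeR called 0 of the 46 genes, 0 had an unadjusted p below 0.05, DESeq2 called 0, and 0% of all genes were called in either direction. Hypergravity libraries lay wholly above controls for 11 genes (31.2% of all genes) and below for 5 (14.4%). Psme1 had 124 and 130.5 CPM in hypergravity BMSC, against 135 and 156 CPM in controls, and Pomp had 122 and 148 against 167 and 175 CPM, both lower without overlap. Psmb5 had 39.2 and 57.8 CPM, against 60.5 and 58.8 CPM in controls, with the replicates under hypergravity far from each other. The genes summed to 4406 ± 158 CPM under hypergravity and 4464 ± 18 CPM in controls (SD, n = 2 each). Stromal markers summed to 2908 to 6316 CPM under hypergravity and to 1480 to 1930 CPM in controls of this set. Neutrophil markers summed to 1818 to 1891 against 1439 to 1469 CPM. Endothelial, lymphoid and erythroid sums were also higher without overlap, and macrophage sums overlapped. The part of these cell types in the result was not tested.

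**Figure D5:**
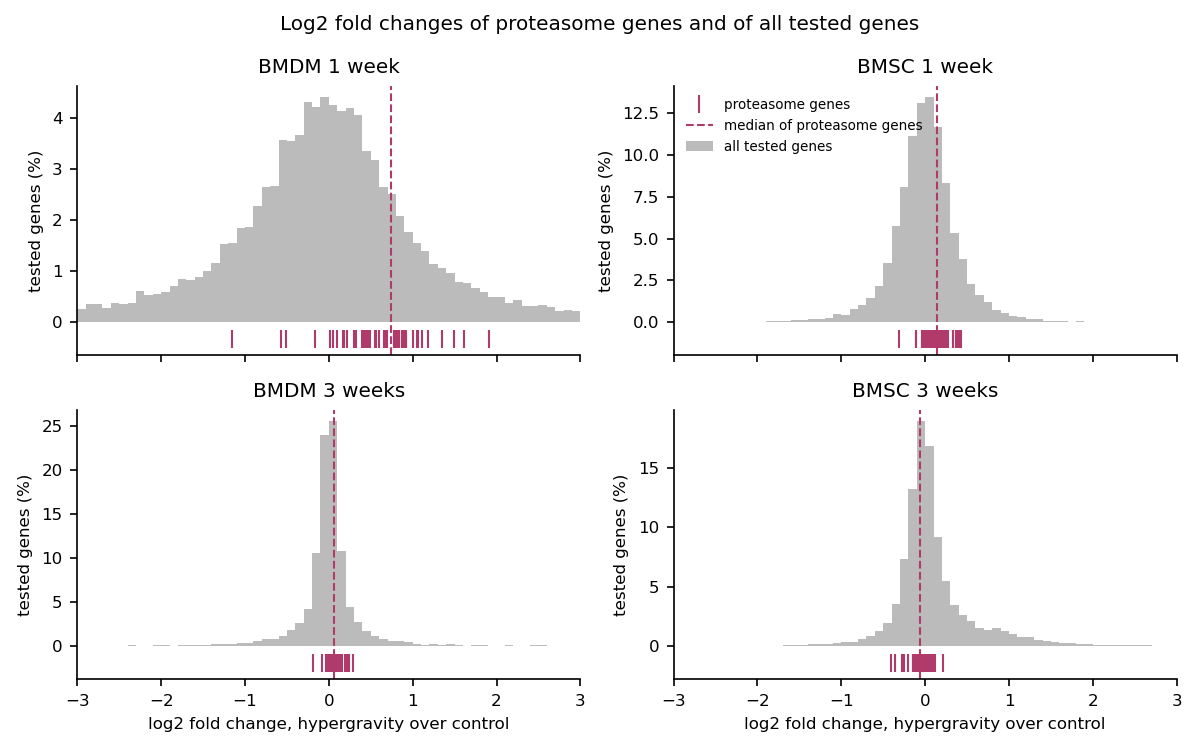
Percentage of all tested genes (vertical axis) in bins of log2 fold change, hypergravity over control (horizontal axis), with the proteasome genes as ticks and their median as a dashed line. The median is 0.74 in BMDM at 1 week, 0.06 in BMDM at 3 weeks, 0.14 in BMSC at 1 week and -0.06 in BMSC at 3 weeks.

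Whether the responses differed was tested directly. In BMDM, the response at 3 weeks minus that at 1 week was lower for 29 of the 46 genes and higher for 1 (edgeR, against 21.5% and 21.9% of all genes). The differences were led by Psme2 (log2 -1.71 ± 0.19, adjusted p = 7.84e-05), Psmd11 (-1.48 ± 0.12, adjusted p = 1e-05), Psmd10 (-1.34 ± 0.21) and Psma6 (-1.27 ± 0.21). Psma8 was the gene with the higher difference (1.39 ± 0.48, adjusted p = 0.039), a call lost without 7 of the 9 libraries in turn. By role, 14 of 18 genes of the 19S particle, 8 of 15 of the alpha and standard beta rings and 4 of 5 activators and inhibitor were lower. None of the 4 tested core chaperones was called. Duration and set cannot be told apart.

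At 1 week the response of BMDM minus that of BMSC was higher for 26 of the 46 genes and lower for 3 (24.8% of all 15550 genes in each direction). Psme2 (log2 1.73 ± 0.19, edgeR adjusted p = 1.25e-06), Psmd11 (1.59 ± 0.11, adjusted p = 4.02e-09), Psmd10 (1.38 ± 0.20) and Psma6 (1.22 ± 0.18) led the higher ones. The 3 lower ones were Psma8 (-1.42 ± 0.43, adjusted p = 0.0118) and the core chaperones Psmg4 (0.501 times the fold in BMSC, adjusted p = 0.011) and Psmg2 (-0.93 ± 0.16, adjusted p = 0.000173). All 4 base genes that are not ATPases and 6 of 8 lid genes were higher, against 1 of 7 standard beta genes, Psmb7. So were 4 of 6 base ATPases, 4 of 8 alpha genes, 4 of 5 activators and inhibitor, and the inducible beta gene Psmb10 (0.54). For Psmb5 and the remaining standard beta genes a difference between cell types was not shown by this test.

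The same test found 0 of 46 genes at 3 weeks, with 1 at an unadjusted p below 0.05 and 0 by DESeq2 (0.244% of all genes higher and 0.00643% lower). Between 3 weeks and 1 week in BMSC edgeR also called 0, with 5 lower at an unadjusted p below 0.05 and 0 by DESeq2, where 0% of all genes were called by edgeR. The counts at an unadjusted p are a description without the share of all genes beside them.

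Between control BMDM and control BMSC, the shares of proteasome genes called in the main fit lay below those of all genes. Control BMDM minus control BMSC was higher for 8 of the 46 genes (17.4%, against 22.2% of all genes) and lower for 2 (4.3%, against 27.7%), led by Psmb10 (log2 0.78 ± 0.10, edgeR adjusted p = 7.66e-06), Psma4 (0.39), Psme1 (0.38), Psmg4 (0.41) and Adrm1 (0.31). Psmb10 ranged from 77.0 to 129 CPM in the 5 control BMDM libraries and from 41.0 to 81.1 CPM in the 5 control BMSC libraries. The contrast took the mean of both control sets. In the 1 week set Psmb10 averaged 112 CPM in BMDM and 45.8 CPM in BMSC, in the 3 week set 78.1 and 77.3 CPM. Psme1 averaged 148 and 83.5 CPM in the 1 week set and, reversed without overlap, 117 and 145.5 CPM in the 3 week set. Adrm1 averaged 36.2 and 26.8 CPM, then 32.2 and 33.7 CPM. Psma4 and Psmg4 averaged higher in BMDM in both sets. The difference between sets was not tested. The count of higher genes was 3 or 4 without the first or second 1 week control of either cell type (6.5% to 8.7%, against 20.0% to 21.3% of all genes). It was 11 (23.9%, against 23.8% of all genes) without the third 1 week BMSC control. Without the third 1 week BMDM control it was 17 (37.0%, against 24.0% of all genes). Over all alternatives the adjusted p reached 0.16 for Adrm1 and 0.135 for Psmg4. With scaling by total alone 3 were higher and 7 lower (6.5% and 15.2%, against 15.1% and 34.5% of all genes). Control BMDM of the 3 week set minus those of the 1 week set were lower for Psme2 (-0.59 ± 0.13, adjusted p = 0.0403) and Psmb10 (-0.57 ± 0.13, adjusted p = 0.0383), 2 of 46 genes, and higher for 0 (2.41% and 1.55% of all genes). For the other direction DESeq2 also called 0, and 2 genes were higher at an unadjusted p below 0.05. Counts at an unadjusted p, here and below, are a description without the share of all genes beside them. Psmb10 had 77.0 and 79.3 CPM in controls of the 3 week set, against 129, 112 and 96.1 CPM in those of the 1 week set, without overlap. CPM of the 3 week set lay wholly above those of the 1 week set for 5 of the 46 genes (22% of all genes) and wholly below for 6 (13.7%). The calls of Psme2 and Psmb10 were each lost under 5 of 13 alternatives, with adjusted p up to 0.325 for Psme2 and 0.313 for Psmb10. No proteasome gene was called by edgeR without the first or second control of the 1 week set, without either control of the 3 week set, or with only the groups compared in the fit, where 4 to 7 had an unadjusted p below 0.05 (DESeq2, with all libraries, called 4 lower). Without the third control of the 1 week set 15 were lower and 2 higher (10.7% and 12.7% of all genes).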

How the data were processed

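The authors deposited raw counts of reads per gene symbol for each library. The submitters' processing notes name HISAT2 2.0.4 and mm10. Which program, annotation and strand setting produced the counts is not given in the sources used here, so overlapping genes and near-identical copies are uncertain. Positions and exonic lengths come from the GENCODE mouse annotation, promoters from RefSeq GRCm38.p6. The main test was that of edgeR 4.0.16 under R 4.3.3 (quasi-likelihood, TMM, filterByExpr, 1 coefficient per group), fitted over the whole table: 13842 genes in 9 BMDM libraries, 15289 in 10 BMSC libraries and 15550 in all 19. All adjusted p-values are Benjamini-Hochberg values from edgeR unless DESeq2 1.42.0 is named, and a call is an adjusted p below 0.05. Counts at an unadjusted p below 0.05 are given without the share of all genes and are a description only. CPM use raw totals. Fitted folds follow TMM, whose factors were 0.853 and 0.868 in hypergravity BMDM at 1 week, so CPM ratios lie below them there. The scripts were tested on simulated counts. Members and lists were chosen with earlier results of these data known, and some pathway genes are not reported here. Every library's CPM is given for a fixed set of catalytic, receptor, activator and assembly genes and for up to 5 called members with the largest change each way. Alternatives were DESeq2, its size factors in edgeR, library size alone, no count filter, a filter at 1 CPM in 2 libraries, other sets of libraries in the fit, the replicate number as a block and omission of each library.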

Additional observations from a re-analysis of the deposited data

Results flagged for a closer look

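Responses that differed between sets or cell types by edgeR's test of the difference are collected here. In BMDM the response at 3 weeks minus that at 1 week was higher for 1 and lower for 29 proteasome genes, with log2 differences of -1.27 in Psma6, 1.39 in Psma8, -1.34 in Psmd10, -1.48 in Psmd11 and -1.71 in Psme2. At 1 week the response of BMDM minus that of BMSC was higher for 26 and lower for 3, with 1.22 in Psma6, -1.42 in Psma8, 1.38 in Psmd10, 1.59 in Psmd11 and 1.73 in Psme2. These differences share the 1 week BMDM libraries and are not independent of each other.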

How the results depend on the processing

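Of the 34 rises in BMDM at 1 week, 28 were called under all 13 alternatives, and of the 2 falls 0. Leaving out 1 library gave 28 to 35 rises and 0 to 3 falls there, and library size alone 4 falls. Signs of uncalled genes turned: Pomp was -0.17 with library size alone, -0.0017 with the replicate block and -0.022 to 0.176 on leaving out 1 library; Psmb6 was -0.14 to 1.55 on leaving out 1 library (negative without the first or second control); Psmf1 was -0.24 with library size alone, -0.040 with no count filter, -0.0033 with only the groups compared, -0.027 with the block, and -0.050 to 0.067 on leaving out 1 library. Leaving out 1 library gave 0 to 4 rises and 0 to 1 falls in BMSC at 1 week, where DESeq2 called 1 rise, no count filter 2 and a filter at 1 CPM 1. For BMDM 3 weeks minus 1 week, rises were 0 by DESeq2, 2 with library size alone and with all 19 libraries, and 3 with the block, and leaving out 1 library gave 0 to 3 rises and 19 to 32 falls (19 without the first hypergravity library at 3 weeks). For BMSC 3 weeks minus 1 week no count filter gave 1 fall. For BMDM minus BMSC at 1 week library size alone and the block each gave 5 falls, and leaving out 1 library gave 20 to 29 rises and 2 to 4 falls. Control BMDM minus control BMSC had 3 rises and 7 falls with library size alone, 4 rises with only the groups compared, 1 fall with no count filter, and 3 to 17 rises and 2 to 3 falls on leaving out 1 library (17 without 1 week BMDM control 3). Between control sets of BMDM, falls were 4 by DESeq2 and with no count filter, 0 with only the groups compared and 12 with the block (2 rises), and leaving out 1 library gave 0 to 15 falls and 0 to 2 rises. Per TMM-scaled library the members summed to 7066 CPM in hypergravity BMDM at 1 week, and to 3904 and 4630 CPM in 3 week controls of BMDM and BMSC. The cause of these changes was not tested. Same-numbered libraries did not deviate together (r = -0.105, 0.118 and 0.382 in BMSC at 1 week), so the numbers were not taken as pairs, and the block gave 36 rises and 3 falls in BMDM at 1 week. Several groups held 2 libraries, which limits the precision.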
